A study of Mus musculus with 58 samples.

Results

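DPP4+ and DPP4- adipose stem cells (ASC) of control mice labelled female were compared as 16 bulk RNA libraries, 8 of DPP4+ cells, called ASC2, and 8 of DPP4- cells, called ASC1, out of 58 libraries in 8 groups. The members were chosen from the labels alone, as the libraries of plate rows A to H that the labels give to DPP4+ and to DPP4- cells of ovary-intact controls. By their labels the mice were control females, which kept their ovaries. By the methods of the study they were of the strain C57BL6/J, were ended at 10 weeks of age and were fasted for 4 h beforehand. The other groups of the series were ovariectomized females, castrated males and control males, the operated mice having had surgery at 4 weeks. The labels give inguinal white adipose tissue (iWAT), a subcutaneous depot, as the source of both populations. Cells were sorted as CD45-, CD31- and CD34+, which leaves out most leukocytes and endothelial cells, before the split by DPP4. Each library was made by the Smart-seq3 protocol from RNA extracted from sorted cells in bulk, so fewer cells of a type and less RNA per cell cannot be told apart. Nothing in the labels ties an ASC1 library to an ASC2 library of the same mouse, and p-values measure the spread between libraries.

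White adipose tissue grows and renews itself from fibroblast-like stem cells that lie around its vessels and in the connective tissue between its lobules. DPP4 is a dipeptidyl peptidase on the cell surface, and DPP4+ cells are known as interstitial progenitors that express Pi16, Cd55, Wnt2 and Bmp7 and are held to lie upstream of more committed cells. DPP4- cells include ASC1a, which express genes of the preadipocyte such as Pparg, Col15a1 and Lpl, and ASC1b, which express Clec11a, F3 and Gdf10 and are described as regulatory. The comparison asks which transcripts separate the sorted populations when neither surgery nor hormone loss has been applied.

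The libraries held 139822 to 893234 counts in ASC1 (median 620045) and 554644 to 1048918 counts in ASC2 (median 717510), and the ASC1 library of row A had the fewest counts and genes (10502 genes with a count above 0). Xist, transcribed from the inactive X chromosome, was read as a check of the sex label. So was the sum of 4 genes of the Y chromosome (Kdm5d, Uty, Eif2s3y and Ddx3y). Levels are given in CPM, a gene's count scaled to a common library total, adjusted by a factor for each library (TMM). The Y-chromosome sum exceeded Xist in 5 of 8 ASC1 libraries (rows B, C, D, G and H) and in 4 of 8 ASC2 libraries (rows A, B, F and G), although the label of all 16 is female. In ASC2 the order rested on few reads in rows B (30 of the Y chromosome against 28 of Xist), G (29 against 25) and H (32 against 36), and row E held 23 beside 55 of Xist. Rows A and F of ASC2 held 30 against 4 and 47 against 8. In ASC1, rows B, C, D, G and H held 33, 37, 51, 55 and 40 reads of the Y chromosome against 1, 2, 2, 6 and 4 of Xist. Rows E and F of ASC1 held 0 against 54 and 35, and row A held 1 against 2. A read of the Y chromosome was found in 6 of 8 libraries of each population. The paper reads low counts of Ddx3y and Eif2s3y in its female controls as weak contamination with male mRNA. It trusts these samples because Sult1e1 and C7, which it calls male specific, were low in them. Sult1e1 had 5 reads over the ASC1 libraries and 0 over the ASC2 libraries, and no value of C7 is given here. The source of the Y-chromosome reads was not tested. Names of groups below, such as control females, and the depot are those of the labels. Tbx15, a transcription factor of subcutaneous fat, and Tcf21, a transcription factor of visceral fat, were read as a check of the depot. The paper calls Tbx15 specific for iWAT and Tcf21 specific for perigonadal fat, a visceral depot. The label of all 16 libraries is iWAT. Tcf21 exceeded Tbx15 in 6 of 8 ASC1 libraries, all except rows E and F, and in 2 of 8 ASC2 libraries, rows C and D. In row A of ASC1 this rested on 13.1 against 6.56 CPM, or 2 reads against 1. The shares of libraries with Tcf21 above Tbx15 thus differed between ASC1 and ASC2. In ASC1, rows B, C, D, G and H had both Tcf21 above Tbx15 and the Y-chromosome sum above Xist, and rows E and F had neither. Apart from row A, the divisions by depot and by sex transcripts thus cannot be told apart in ASC1. In ASC2, rows C and D had Tcf21 above Tbx15 and 0 reads of the Y chromosome. For the genes named below whose call ended when a term for Tcf21 above Tbx15 was added to the fit, the adjusted p with the term stands beside the result.

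**Figure D1:**
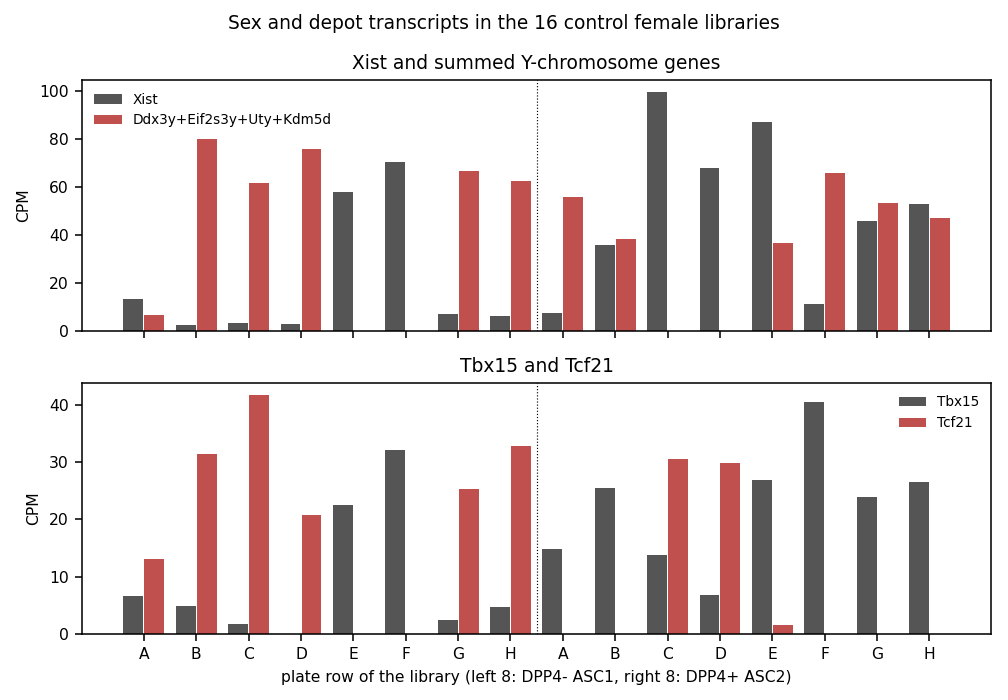
Level in CPM of Xist beside the sum of 4 Y-chromosome genes (top) and of Tbx15 beside Tcf21 (bottom) in each of the 16 libraries, ordered by plate row, with the 8 ASC1 libraries left of the dotted line and the 8 ASC2 libraries right of it. Bars are single libraries. The Y-chromosome sum is the taller bar in 5 ASC1 and 4 ASC2 libraries, and Tcf21 is the taller bar in 6 ASC1 and 2 ASC2 libraries.

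Between ASC2 and ASC1, 762 of 12464 genes tested (6.11%) had an adjusted p below 0.05 (edgeR quasi-likelihood test, Benjamini-Hochberg), of which 441 (3.54%) were higher and 321 (2.58%) were lower in ASC2. A difference of at least 2-fold was found for 553 of them (4.44% of genes tested), 316 of the higher genes (2.54% of genes tested) and 237 of the lower genes (1.9%). Log2 fold changes are given as ASC2 minus ASC1 with their standard error, so a positive value is higher in the DPP4+ cells, and the median over all genes tested was 0.0019. When libraries were scaled by their total counts alone, the split was 368 higher and 436 lower, or 45.8% higher against 57.9%. The fit was repeated on the 16 libraries with a term for Tcf21 above Tbx15, a choice made after the data had been seen. With that term 452 genes passed (3.63% of genes tested, 323 higher, 2.59%, and 129 lower, 1.03%), and all 441 and all 321 genes kept their sign. Of the 441 higher genes 277 (62.8%) still passed, and of the 321 lower genes 98 (30.5%) did, and these genes made up 83% of the genes called with the term. The term itself was called for 1614 genes (12.9%). Without the 9 libraries in which the Y-chromosome sum exceeded Xist, 252 genes were higher (2.02%) and 39 lower (0.313%), and 186 of the 441 and 10 of the 321 passed again. Of the genes named below, 88 were higher and 62 lower in ASC2, and with the term 76 of the 88 and 26 of the 62 passed. Without the libraries in which the Y-chromosome sum exceeded Xist, 62 of the 88 and 7 of the 62 passed. Without the libraries with Tcf21 above Tbx15, which left 2 ASC1 and 6 ASC2 libraries, 48 and 8 passed.

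**Figure D2:**
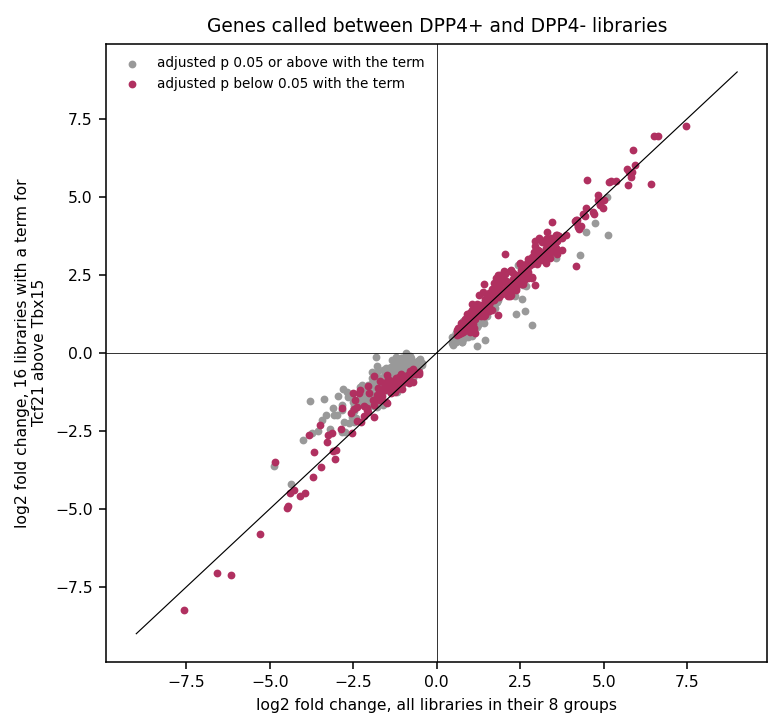
Log2 fold change (ASC2 minus ASC1) of the 762 called genes in the fit of all libraries (horizontal axis) against the fit of the 16 libraries with a term for Tcf21 above Tbx15 (vertical axis). Each point is a gene, colored where it also passed with the term. The 441 higher genes lie near the diagonal line of equal values, while many of the 321 lower genes lie between the diagonal and 0, and 98 of the lower genes are colored.

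Of 22 ASC2 markers tested, 19 were higher and 0 lower in the DPP4+ population, against 3.54% and 2.58% of all genes tested. Among the 22 is Dpp4, whose protein was the basis of the sort, and the list was chosen with earlier results of these data known. The count is thus a description and not an independent test. The median log2 fold change of the 22 markers was 2.87, against 0.0019 over all genes, and 18 were higher with the term for Tcf21. Their summed level was 2168 to 3487 CPM (median 3075) in ASC1 and 5827 to 18644 CPM (median 8948) in ASC2, with the highest sum in row E of ASC2 and the lowest ASC2 sum in row A. Dpp4, the transcript of the sorted protein, checks the sort and was at 6.01 to 42.1 CPM (median 33.9) in ASC1 and 92.3 to 489 CPM (median 221) in ASC2. Dpp4 had a log2 fold change of 3.16 ± 0.38 (adjusted p = 1.06e-08). No ASC2 library fell to the highest ASC1 value of Dpp4. Pi16, a secreted peptidase inhibitor of interstitial fibroblasts, was at 0 to 94.3 CPM (median 18.6) in ASC1 and 1104 to 5094 CPM (median 2523) in ASC2, the lowest adjusted p of all genes (log2 fold change 6.64 ± 0.48, 99.5-fold, adjusted p = 4.19e-16). The groups did not overlap, and Pi16 was low also in the ASC1 libraries with Tbx15 above Tcf21 (13.9 and 12.02 CPM in rows E and F). Bmp7, a bone morphogenetic protein, had 1 read over the 8 ASC1 libraries and 121 over the 8 ASC2 libraries, a ratio of 102 with a counting interval of 17.9 to 4043 (95%, adjusted p = 7.66e-07). Cd55, a surface inhibitor of complement, was at 9.63 to 42.1 CPM (median 29.9) in ASC1 and 40.7 to 326 CPM (median 132) in ASC2, overlapping in 1 ASC2 library. Cd55 had a log2 fold change of 2.50 ± 0.37 (adjusted p = 1.72e-06).

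Other members were near 0 in most ASC1 libraries. Smpd3, a neutral sphingomyelinase, was at 0 to 7.26 CPM (median 0.603) in ASC1 and 22.2 to 170.1 CPM (median 61.02) in ASC2 (log2 fold change 5.21 ± 0.59). Efhd1, a calcium-binding protein of mitochondria, was at 0 to 3.12 CPM (median 0.535) and 16.7 to 72.9 CPM (median 34.1) (log2 fold change 4.84 ± 0.59). Sema3c, a secreted semaphorin, was at 0 to 14.5 CPM (median 5.96) and 46.1 to 386 CPM (median 99.5) (log2 fold change 4.23 ± 0.48). In all 3 genes every ASC2 library lay above every ASC1 library, and their adjusted p-values lay between 1.22e-09 and 1.59e-08. Anxa3, an annexin already abundant in ASC1 at 254 to 527 CPM (median 329), reached 760.1 to 1787 CPM (median 988) in ASC2, a 2.98-fold difference. Anxa3 had a log2 fold change of 1.58 ± 0.17 (adjusted p = 2.76e-10). Cd248, Emilin2 and Fbn1 were the members that did not pass, with log2 fold changes of 0.45 ± 0.24, 0.33 ± 0.17 and 0.14 ± 0.20 and adjusted p = 0.306, 0.304 and 0.792. For Cd248, a transmembrane glycoprotein of stromal cells, the value without the libraries with Tcf21 above Tbx15 was 1.75 (adjusted p = 0.0080, 2 ASC1 against 6 ASC2 libraries). Among the 3 this value is given for Cd248 alone. In that small subset only 48 of 88 named higher genes and 8 of 62 named lower genes passed.

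**Figure D3:**
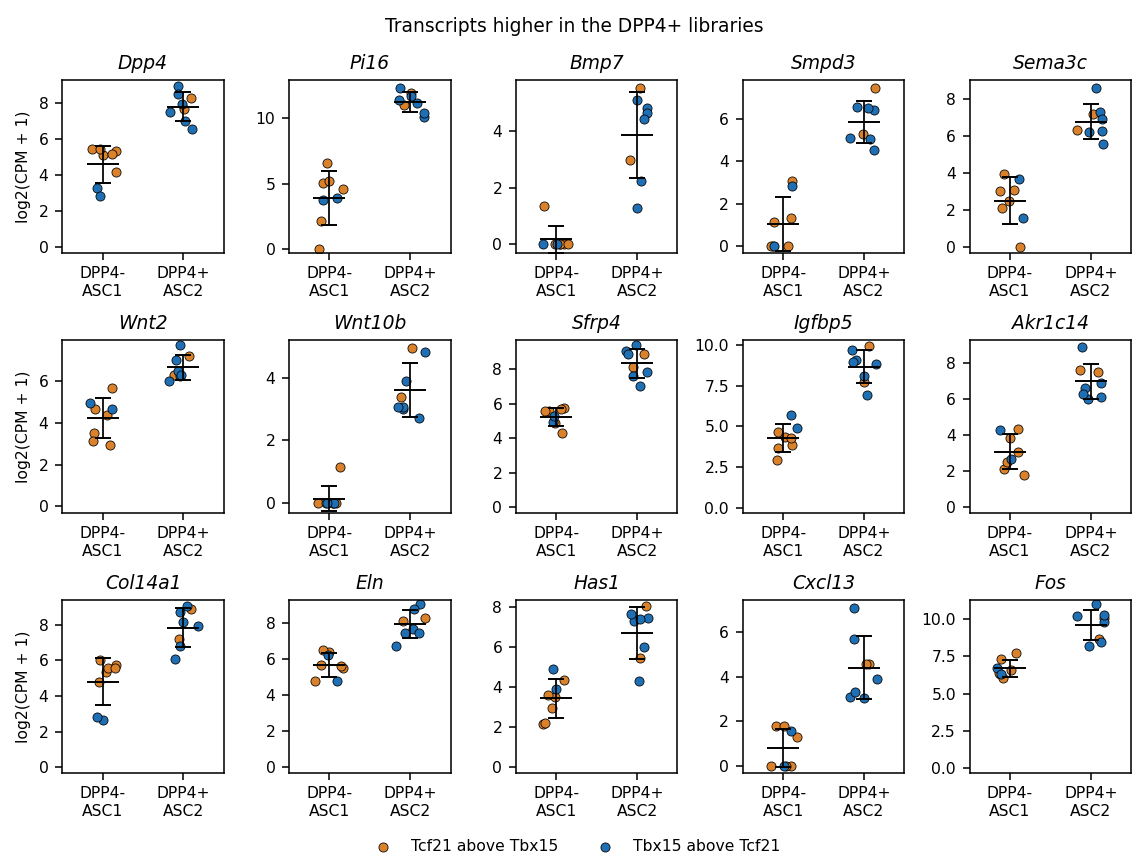
Log2(CPM + 1) of 15 transcripts that were higher in ASC2, with 1 point a library, colored by whether Tcf21 or Tbx15 was the higher of the pair in that library, and bars for the mean ± SD of 8 libraries. For Dpp4, Pi16, Smpd3, Sema3c, Wnt2, Wnt10b, Sfrp4, Igfbp5, Akr1c14, Col14a1, Eln, Cxcl13 and Fos every ASC2 point lies above every ASC1 point.

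Genes outside the marker lists were named by the size of their difference among called genes with a mean of at least 10 CPM over the 16 libraries. Irf4, a transcription factor of the interferon regulatory family, had no read in any ASC1 library and 177 reads over the ASC2 libraries, at 9.26 to 98.2 CPM (median 24.95). It was thus at least 49.5-fold higher when ASC1 was set at 3 reads over the group (adjusted p = 9.29e-08). Gpr1 (now also named Cmklr2), a receptor of the adipokine chemerin, had 1 read in ASC1 and 135 in ASC2 (adjusted p = 1.72e-06), and Mrgprg, an orphan receptor, had 3 and 275 (adjusted p = 2.0e-06). Krt36, a hair keratin, had 1 read in ASC1 and 125 in ASC2, at 4.19 to 42.2 CPM (median 20.6) (adjusted p = 9.23e-07). Of these genes, Mrgprg alone overlapped between the groups, in 1 ASC2 library. Serpina3c, a serine protease inhibitor, was at 0 to 3.62 CPM (median 1.31) in ASC1 and 27.9 to 129.9 CPM (median 43.5) in ASC2. Serpina3c had a log2 fold change of 4.89 ± 0.48 (adjusted p = 2.37e-11). Cldn11, a claudin of tight junctions, was at 0 to 5.00 CPM (median 0) and 5.50 to 95.4 CPM (median 11.7). Cldn11 had a log2 fold change of 4.68 ± 0.72 (adjusted p = 3.76e-06). Dmkn, a secreted dermokine, was at 0 to 2.97 CPM (median 0) and 7.41 to 49.1 CPM (median 22.5). Dmkn had a log2 fold change of 4.48 ± 0.68 (adjusted p = 2.21e-06). Irf4, Gpr1, Krt36, Serpina3c, Cldn11 and Dmkn did not overlap between ASC1 and ASC2, and all 7 genes named here passed with the term for Tcf21. They were picked for the size of their difference, which favors genes without overlap. Statements of overlap for single genes, here and elsewhere, concern called genes, and the share of all genes tested without overlap was not counted.

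Canonical Wnt signaling holds back adipogenesis, and ligands, secreted inhibitors and modulators of the pathway were counted together. Of 34 tested members 6 were higher, 3 were lower and 25 did not pass, against 3.54% of all genes tested higher and 2.58% lower, with a median log2 fold change of -0.06. The counts of the lists that follow stand against the same shares. The ligands that passed were Wnt2, Wnt10b, Wnt11 and Wnt4. Wnt2 was at 6.66 to 49.5 CPM (median 21.9) in ASC1 and 62.9 to 207 CPM (median 82.8) in ASC2. Wnt2 had a log2 fold change of 2.28 ± 0.32 (adjusted p = 5.12e-07). Wnt10b, a ligand known to block adipocyte differentiation, had 1 read in ASC1 and 82 in ASC2, with every ASC2 library above every ASC1 library (adjusted p = 2.17e-06). Wnt11 rose from a median of 0.603 to 6.45 CPM (log2 fold change 2.42 ± 0.70, adjusted p = 0.0235) and lost its call without row H of ASC1 (log2 fold change 2.23, adjusted p = 0.0599) or without row E of ASC2 (log2 fold change 2.19, adjusted p = 0.0719). Wnt4 went the other way, at 0 to 24.9 CPM (median 11.4) in ASC1 and 0 to 2.71 CPM (median 0) in ASC2, with overlapping ranges. In ASC1 it was at 1.07 and 0 CPM in rows E and F and 7.26 to 24.9 CPM in the other 6. Wnt4 had a log2 fold change of -3.84 ± 0.76 (adjusted p = 0.000373). The secreted frizzled-related proteins, which bind Wnt ligands outside the cell, were divided between the populations. Sfrp4 was at 18.3 to 53.2 CPM (median 42.00) in ASC1 and 128 to 675 CPM (median 373) in ASC2 with no overlap. Sfrp4 had a log2 fold change of 3.26 ± 0.33 (adjusted p = 4.12e-11). Sfrp1 was at 4.01 to 402 CPM (median 316) in ASC1 and 9.17 to 57.01 CPM (median 15.1) in ASC2. Sfrp1 had a log2 fold change of -3.37 ± 0.64 (adjusted p = 0.000194). The ASC1 range of Sfrp1 was wide, with 7.49 and 4.01 CPM in the ASC1 libraries of rows E and F and 184 to 402 CPM in the other 6, and with the term for Tcf21 its log2 fold change was -1.49 (adjusted p = 0.108). Of the remaining called members, Sfrp2 and Dact2, modulators of Wnt signaling, were higher by 1.25 ± 0.37 and 2.43 ± 0.76 (adjusted p = 0.0271 and 0.040, and 0.197 and 0.0788 with the term). Nkd2, an intracellular Wnt antagonist, was lower in ASC2. Nkd2 had a log2 fold change of -2.04 ± 0.46 (adjusted p = 0.00183). The call of Sfrp2 was lost in 5 of the 16 fits that left out 1 library, up to adjusted p = 0.233 without row E of ASC2. That of Dact2 was lost in 10 of the 16 fits that left out 1 library, up to adjusted p = 0.104 without row E of ASC2.

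In the TGF-beta and BMP pathway 5 of 32 tested members were higher and 3 lower (median -0.16). Besides Bmp7, the higher members were Chrdl1, a secreted BMP antagonist, Id2 and Id3, transcriptional targets of BMP signaling, and Fstl1, a secreted follistatin-like protein. Chrdl1 was at 0 to 16.1 CPM (median 11.2) in ASC1 and 8.39 to 185 CPM (median 44.5) in ASC2. Chrdl1 had a log2 fold change of 2.30 ± 0.44 (adjusted p = 0.000241). Id3 was at 222 to 457 CPM (median 332) and 435 to 903 CPM (median 533). Id3 had a log2 fold change of 0.77 ± 0.24 (adjusted p = 0.0387). The call of Id3 was lost in 9 of the 16 fits that left out 1 library, up to adjusted p = 0.135 without row E of ASC2. Id2 (log2 fold change 1.05 ± 0.29, adjusted p = 0.0159, and 0.49 with the term) lost it without row E of ASC2 (log2 fold change 0.63, adjusted p = 0.207). Fstl1 was at 953 to 1390.4 CPM (median 1298) and 1228 to 2867 CPM (median 1916). Fstl1 had a log2 fold change of 0.63 ± 0.14 (adjusted p = 0.00151). The lower members were Bmper, Gdf10 and Fstl3. Bmper, a secreted BMP-binding protein, was at 46.1 to 348 CPM (median 307) in ASC1 and 17.6 to 105 CPM (median 34.7) in ASC2. Bmper had a log2 fold change of -2.29 ± 0.51 (adjusted p = 0.00155). With the term for Tcf21 the value of Bmper was -1.21 (adjusted p = 0.0133). Fstl3, an activin inhibitor, was at 16.1 to 44.5 CPM (median 23.5) and 0 to 27.1 CPM (median 0.734), with 7 of 8 ASC2 libraries below every ASC1 library. Fstl3 had a log2 fold change of -1.999 ± 0.55 (adjusted p = 0.0139, and 0.0705 with the term). Gdf10, a BMP-like ligand listed also among the ASC1b markers, had a log2 fold change of -1.27 ± 0.31 (adjusted p = 0.00551, and 0.0543 with the term).

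Fibroblast-like cells make the extracellular matrix, and its components were counted by class. Of 19 fibrillar collagens and crosslinking enzymes, 1 was higher and 2 were lower (median -0.21), and Col1a1 and Col1a2 had log2 fold changes of -0.27 ± 0.25 and -0.05 ± 0.18 (adjusted p = 0.642 and 0.926). The higher member was Col14a1, a collagen that sits on fibril surfaces, at 5.35 to 63.9 CPM (median 42.99) in ASC1 and 66.7 to 531 CPM (median 263) in ASC2 with no overlap. Col14a1 had a log2 fold change of 2.96 ± 0.41 (adjusted p = 4.03e-07). The lower members, Plod1 and Adamts2, which modify procollagen, had adjusted p = 0.0436 and 0.0477, and 0.741 and 0.993 with the term. The call of Plod1 was lost in 12 of the 16 fits that left out 1 library, up to adjusted p = 0.117 without row E of ASC2. That of Adamts2 was lost in 11 of the 16 fits that left out 1 library, up to adjusted p = 0.124 without row H of ASC1. Small leucine-rich proteoglycans, which bind and space collagen fibrils, had 4 of 10 tested members higher and 1 lower (median 0.39). Ogn was at 40.1 to 82.2 CPM (median 66.9) in ASC1 and 124 to 657 CPM (median 315) in ASC2. Aspn was at 6.23 to 26.1 CPM (median 13.9) and 35.2 to 143 CPM (median 65.96), and Omd at 0 to 9.68 CPM (median 1.52) and 9.78 to 69.7 CPM (median 21.2). In these 3 genes the groups did not overlap, with log2 fold changes of 2.36 ± 0.30, 2.38 ± 0.33 and 3.59 ± 0.52 (adjusted p = 2.6e-08, 3.27e-07 and 1.0e-06). Dcn was higher by 0.83 ± 0.22 (adjusted p = 0.00966, and 0.0854 with the term) and not past the threshold without row E of ASC2 (log2 fold change 0.56, adjusted p = 0.107). Bgn was the lower member at -0.75 ± 0.20 (adjusted p = 0.0135, and 0.335 with the term), and not past it without that library (log2 fold change -0.62, adjusted p = 0.0519).

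The elastic fiber and microfibril list had 4 members higher and 4 lower of 18. Eln, the elastin gene, was at 26.2 to 90.5 CPM (median 49.5) in ASC1 and 106 to 526 CPM (median 240.5) in ASC2 with no overlap. Eln had a log2 fold change of 2.28 ± 0.32 (adjusted p = 5.05e-07). Efemp1, Ltbp4 and Mfap5, which take part in microfibrils and elastic fibers, were higher by 1.04 ± 0.25, 1.71 ± 0.37 and 0.91 ± 0.21 (adjusted p = 0.00366, 0.00115 and 0.00252). Ltbp2, which binds fibrillin, was lower, at 98.4 to 347 CPM (median 259) in ASC1 and 0 to 61.1 CPM (median 19.1) in ASC2 with no overlap. Ltbp2 had a log2 fold change of -3.12 ± 0.60 (adjusted p = 0.000248). With the term for Tcf21 the value of Ltbp2 was -2.57 (adjusted p = 1.07e-05). The other lower members, Efemp2, Emilin1 and Ltbp3, had log2 fold changes of -0.92 ± 0.18, -1.04 ± 0.33 and -0.81 ± 0.22, and with the term their adjusted p-values were 0.138, 0.382 and 0.253. The call of Emilin1 was lost in 12 of the 16 fits that left out 1 library, up to adjusted p = 0.109 without row E of ASC2. In the basement membrane list 2 of 19 were higher, Lama2 and Nid1, and 2 were lower, Col15a1 and Nid2. Lama2, a laminin chain, had a log2 fold change of 0.92 ± 0.25 (adjusted p = 0.0128, and 0.0672 with the term) and was not past the threshold without row E of ASC2 (log2 fold change 0.80, adjusted p = 0.0564). Nid1, a nidogen, had a log2 fold change of 0.46 ± 0.14 (adjusted p = 0.028, and 0.133 with the term), a call lost in 6 of the 16 fits that left out 1 library, up to adjusted p = 0.0813 without row G of ASC2. Nid2, a basement membrane nidogen, was at 14.99 to 206 CPM (median 173) in ASC1 and 14.3 to 41.1 CPM (median 32.7) in ASC2 (log2 fold change -2.06 ± 0.41, adjusted p = 0.000458, and 0.192 with the term), with 14.99 and 32.1 CPM in the ASC1 libraries of rows E and F and 65.6 to 206 CPM in the other 6.

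Genes of hyaluronan, the large glycosaminoglycan of loose connective tissue, had 3 of 12 tested members higher and 1 lower (median 0.23). Has1, a hyaluronan synthase, was at 3.33 to 28.9 CPM (median 10.6) in ASC1 and 18.5 to 263 CPM (median 161) in ASC2 (log2 fold change 3.40 ± 0.50, adjusted p = 1.09e-06), overlapping in 1 ASC2 library. Tnfaip6, which modifies hyaluronan, was at 13.1 to 78.2 CPM (median 40.7) and 83.3 to 432 CPM (median 137) with no overlap. Tnfaip6 had a log2 fold change of 2.13 ± 0.34 (adjusted p = 6.41e-06). Ugdh, which makes the UDP-glucuronate from which hyaluronan is built, was higher by 1.001 ± 0.25 (adjusted p = 0.00639). Cemip, a protein needed for hyaluronan breakdown, was the lower member, at 18.3 to 42.1 CPM (median 19.9) in ASC1 and 0 to 13.98 CPM (median 5.92) in ASC2 with no overlap. Cemip had a log2 fold change of -1.88 ± 0.41 (adjusted p = 0.00155). All 4 calls held with the term for Tcf21. Without the libraries in which the Y-chromosome sum exceeded Xist, 2 members of the list were called higher and 1 lower. Among matrix proteases and their inhibitors 4 of 21 were higher and 5 lower. The inhibitors lay on both sides. Timp3 was at 66.4 to 142 CPM (median 106) in ASC1 and 157 to 678 CPM (median 311) in ASC2. Timp3 had a log2 fold change of 1.76 ± 0.25 (adjusted p = 8.59e-07). Timp2 was higher by 1.22 ± 0.26 (adjusted p = 0.000855), whereas Timp1 was at 868 to 3685 CPM (median 2936) in ASC1 and 779 to 1372 CPM (median 1144) in ASC2. Timp1 had a log2 fold change of -1.29 ± 0.27 (adjusted p = 0.00064, and 0.0596 with the term). Its level was 1562 and 868 CPM in rows E and F of ASC1 and 2443 to 3685 CPM in the other ASC1 rows. Mmp3, the protease stromelysin, was at 1325 to 3412 CPM (median 2819) in ASC1 and 549 to 1126 CPM (median 808) in ASC2, without overlap (log2 fold change -1.64 ± 0.21, adjusted p = 2.95e-08, and -1.23 with the term, adjusted p = 0.000528). Mmp2, a gelatinase, was higher in ASC2 by 0.71 ± 0.18 (adjusted p = 0.00674), and so was Adamtsl4, a secreted protein that binds fibrillin, by 3.65 ± 0.48 (adjusted p = 1.03e-07). The lower members besides Timp1, Mmp3 and Adamts2 were Adamts5 and Adamts15, whose adjusted p-values of 0.0275 and 0.0357 were 0.951 and 0.801 with the term. The call of Adamts5 was lost in 7 of the 16 fits that left out 1 library, up to adjusted p = 0.0603 without row C of ASC1. That of Adamts15 was lost in 9 of the 16 fits that left out 1 library, up to adjusted p = 0.112 without row C of ASC1.

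Of 17 tested members of the complement list, which takes in the C1q-related C1qtnf1, 4 were higher in ASC2 and 2 lower. C3, the central component, was at 38.1 to 784 CPM (median 515) in ASC1 and 291 to 3554 CPM (median 1689.5) in ASC2, with 6 of 8 ASC2 libraries above every ASC1 library. C3 had a log2 fold change of 2.05 ± 0.49 (adjusted p = 0.00441). C4b, of the classical pathway, was at 50.1 to 341 CPM (median 171) and 139.8 to 1249.6 CPM (median 537). C4b had a log2 fold change of 1.73 ± 0.32 (adjusted p = 0.000113). C1qtnf1, a C1q-related secreted protein, was higher by 2.18 ± 0.33 (adjusted p = 1.89e-06), and Cd55 was the remaining higher member. Clu, an inhibitor of the terminal complex, was at 56.1 to 221 CPM (median 154) in ASC1 and 12.6 to 80.6 CPM (median 30.9) in ASC2. Clu had a log2 fold change of -2.07 ± 0.51 (adjusted p = 0.00551). Cfp, which stabilizes the alternative pathway convertase, had a log2 fold change of -1.57 ± 0.38 (adjusted p = 0.00501). All 6 genes also passed with the term for Tcf21. Without the libraries in which the Y-chromosome sum exceeded Xist, 7 members of the list were called higher and 0 lower.

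Among 18 chemokines and their receptors 5 were higher and 1 was lower. The scavenging receptors Ackr3 and Ackr2, which take up chemokines without signaling through G proteins, were both higher. Ackr3 was at 35.3 to 133 CPM (median 74.2) in ASC1 and 300.0 to 1473 CPM (median 733) in ASC2. Ackr3 had a log2 fold change of 3.31 ± 0.31 (adjusted p = 7.39e-12). Ackr2 was at 0 to 6.01 CPM (median 0) and 18.2 to 53.8 CPM (median 32.8) (log2 fold change 4.37 ± 0.55, adjusted p = 2.91e-08), neither with overlap. Cxcl13, an attractant of B cells, was at 0 to 2.42 CPM (median 0.742) in ASC1 and 7.34 to 134 CPM (median 18.3) in ASC2 with no overlap. Cxcl13 had a log2 fold change of 4.73 ± 0.69 (adjusted p = 1.32e-06). Cxcl1, an attractant of neutrophils, was higher by 2.15 ± 0.46 (adjusted p = 0.00124), and Cxcl10 by 2.86 ± 0.85 (adjusted p = 0.0283). The call of Cxcl10 was lost in 6 of the 16 fits that left out 1 library, up to adjusted p = 0.0651 without row D of ASC1. Cxcl12, which holds progenitors and leukocytes in stromal niches and is a ligand of Ackr3, was lower in ASC2, at 279 to 1360.1 CPM (median 1130.0) in ASC1 and 107 to 593 CPM (median 192) in ASC2. Cxcl12 had a log2 fold change of -1.69 ± 0.34 (adjusted p = 0.000405). Its level was 371 and 279 CPM in rows E and F of ASC1 and 623 to 1360 CPM in the other ASC1 rows. With the term for Tcf21 its log2 fold change was -0.89 (adjusted p = 0.0298). Without the libraries in which the Y-chromosome sum exceeded Xist it was 0.01, and not past the threshold.

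Immediate early genes are switched on within minutes by growth factors, handling or stress and encode short-lived transcription factors and regulators. Of 26 tested members of this list, 12 were higher in ASC2 and 0 lower, with a median log2 fold change of 1.00, and 11 were higher with the term for Tcf21. Their summed level was 597 to 959.9 CPM (median 809) in ASC1 and 1029.6 to 5651 CPM (median 3121) in ASC2, so no ASC2 library overlapped with ASC1. Row E had the highest and row A the lowest sum of the ASC2 libraries, as for the sum of the ASC2 markers. The share of counts from mitochondrial genes, read as a sign of RNA quality, was 0.599% to 0.862% (median 0.703%) in ASC1 and 0.533% to 1.29% (median 0.897%) in ASC2. It was highest in row E and lowest in row F of ASC2, the rows with the highest and the second lowest sum of this list, and its part in these results was not tested. Among the AP-1 factors Fos was at 64.98 to 213 CPM (median 89.8) in ASC1 and 291 to 2076 CPM (median 991) in ASC2. Fos had a log2 fold change of 3.08 ± 0.35 (adjusted p = 1.22e-09). Fosb was at 0 to 10.7 CPM (median 7.93) and 14.8 to 179 CPM (median 81.9). Fosb had a log2 fold change of 3.76 ± 0.56 (adjusted p = 1.6e-06). Jun was at 19.3 to 43.9 CPM (median 24.8) and 35.3 to 263 CPM (median 148). Jun had a log2 fold change of 2.37 ± 0.36 (adjusted p = 1.93e-06). Fos and Fosb did not overlap between the groups. The zinc-finger factor Egr1 was at 6.56 to 31.04 CPM (median 18.6) in ASC1 and 40.7 to 622 CPM (median 212) in ASC2 with no overlap. Egr1 had a log2 fold change of 3.57 ± 0.47 (adjusted p = 9.3e-08). The nuclear receptor Nr4a1 was at 12.1 to 26.7 CPM (median 18.6) and 33.3 to 331 CPM (median 220.0) with no overlap. Nr4a1 had a log2 fold change of 3.33 ± 0.45 (adjusted p = 1.46e-07). Zfp36, which destabilizes cytokine mRNAs, was higher by 2.59 ± 0.33 (adjusted p = 5.12e-08), and Klf4, Klf2 and Klf6 by 2.74 ± 0.45, 2.19 ± 0.51 and 0.81 ± 0.20 (adjusted p = 1.64e-05, 0.00307 and 0.00425, and 0.0854 with the term for Klf2). The remaining called members were Dusp1, Atf3 and Btg2, with log2 fold changes of 2.56 ± 0.48, 2.06 ± 0.44 and 1.92 ± 0.42 (adjusted p = 0.000145, 0.00124 and 0.0014).

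Promoter sequence is shown for 4 of these genes because they were higher together. A promoter entry was found for 11 of the 12 called members (RefSeq, GRCm38.p6), and the 250 bases before the transcription start were searched on both strands. The core TGACG of the cyclic AMP response element, or its complement CGTCA, was present in 8 of the 11, against 17.8% of all 32851 promoters of the same length. The full element TGACGTCA, which contains both cores and counts under each, was present in 2 (Dusp1 and Btg2) against 1.55%, and the CArG box, the site of serum response factor, in 1 (Zfp36) against 1.47%. These letters are a description of the window and not evidence of binding. The sequences run 5′ to 3′ on the gene's strand, with the motif found in capitals, for Fos (chr12:85473640-85473889, plus strand), Nr4a1 (chr15:101266596-101266845, plus strand), Btg2 (chr1:134079156-134079405, minus strand) and Zfp36 (chr7:28379229-28379478, minus strand, CArG box 58 bases before the start).
Fos: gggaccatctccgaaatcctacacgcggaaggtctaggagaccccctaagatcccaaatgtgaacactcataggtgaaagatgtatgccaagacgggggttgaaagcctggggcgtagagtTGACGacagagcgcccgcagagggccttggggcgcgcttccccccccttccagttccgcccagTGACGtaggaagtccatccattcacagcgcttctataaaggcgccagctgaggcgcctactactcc
Nr4a1: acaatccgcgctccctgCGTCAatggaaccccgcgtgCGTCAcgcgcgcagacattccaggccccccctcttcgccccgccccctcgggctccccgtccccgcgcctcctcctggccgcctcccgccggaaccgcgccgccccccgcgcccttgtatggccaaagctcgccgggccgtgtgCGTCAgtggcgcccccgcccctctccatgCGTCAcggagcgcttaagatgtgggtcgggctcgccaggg
Btg2: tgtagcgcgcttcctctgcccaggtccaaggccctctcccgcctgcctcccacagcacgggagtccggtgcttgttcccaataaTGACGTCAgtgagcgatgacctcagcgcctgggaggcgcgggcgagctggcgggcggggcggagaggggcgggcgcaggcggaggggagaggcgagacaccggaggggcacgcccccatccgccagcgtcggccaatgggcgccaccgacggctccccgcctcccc
Zfp36: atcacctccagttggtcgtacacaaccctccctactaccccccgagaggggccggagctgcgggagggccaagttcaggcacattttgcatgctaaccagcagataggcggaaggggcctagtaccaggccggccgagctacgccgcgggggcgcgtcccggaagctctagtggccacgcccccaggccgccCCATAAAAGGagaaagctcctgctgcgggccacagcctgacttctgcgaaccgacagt

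The insulin-like growth factor axis, which drives growth and adipogenesis, showed both directions, with 2 of 13 tested members higher and 2 lower. The binding proteins Igfbp5 and Igfbp6 were higher. Igfbp5 was at 6.56 to 50.1 CPM (median 18.99) in ASC1 and 119 to 975 CPM (median 470.0) in ASC2. Igfbp5 had a log2 fold change of 4.43 ± 0.41 (adjusted p = 7.39e-12). Igfbp6 was at 144 to 495 CPM (median 338) and 828 to 2689 CPM (median 1399). Igfbp6 had a log2 fold change of 2.16 ± 0.24 (adjusted p = 8.85e-10). Neither overlapped between the groups. The ligand Igf1 and the binding protein Igfbp3 were lower. Igf1 was at 36.4 to 328 CPM (median 282) in ASC1 and 42.01 to 109 CPM (median 89.3) in ASC2. Igf1 had a log2 fold change of -1.46 ± 0.37 (adjusted p = 0.00747). Igfbp3 was at 4.01 to 285 CPM (median 222) and 5.56 to 51.1 CPM (median 19.7). Igfbp3 had a log2 fold change of -2.96 ± 0.44 (adjusted p = 1.61e-06). Igfbp3 was at 14.99 and 4.01 CPM in the ASC1 libraries of rows E and F and 177 to 285 CPM in the other 6. Igf1 was at 36.4 and 72.1 CPM in the ASC1 libraries of rows E and F and 184 to 328 CPM in the other 6. With the term for Tcf21 the log2 fold changes were -0.57 (adjusted p = 0.422) for Igf1 and -1.39 (adjusted p = 0.113) for Igfbp3.

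Enzymes and receptors of steroid hormones had 4 of 18 tested members higher and 2 lower. Akr1c14, a 3-alpha-hydroxysteroid dehydrogenase, was at 2.41 to 19.3 CPM (median 6.30) in ASC1 and 62.9 to 472 CPM (median 105) in ASC2 with no overlap. Akr1c14 had a log2 fold change of 4.18 ± 0.47 (adjusted p = 1.14e-09). Akr1c18, a 20-alpha-hydroxysteroid dehydrogenase that inactivates progesterone, was at 13.1 to 209.8 CPM (median 62.7) and 243 to 2529 CPM (median 499.8), again with no overlap. Akr1c18 had a log2 fold change of 2.95 ± 0.51 (adjusted p = 4.52e-05). The estrogen receptor gene Esr1 was at 1.56 to 26.2 CPM (median 9.67) in ASC1 and 14.8 to 87.1 CPM (median 35.4) in ASC2, with 5 of 8 ASC2 libraries above every ASC1 library. Esr1 had a log2 fold change of 2.03 ± 0.41 (adjusted p = 0.000451). Pgr, the progesterone receptor and an estrogen-induced gene, was at 0 to 13.1 CPM (median 2.32) and 1.83 to 62.4 CPM (median 8.36) (log2 fold change 2.94 ± 0.82, adjusted p = 0.0167), with its highest ASC2 values in rows C and D (35.4 and 62.4 CPM). Without row D of ASC2 its call was lost (log2 fold change 2.30, adjusted p = 0.0811). The members lower in ASC2 were Cyp1b1 and Hsd11b1. Cyp1b1, which hydroxylates estrogens, was at 58.9 to 703 CPM (median 549) in ASC1 and 36.4 to 93.7 CPM (median 68.9) in ASC2. Cyp1b1 had a log2 fold change of -2.66 ± 0.41 (adjusted p = 3.22e-06). Hsd11b1, which regenerates active glucocorticoid, was at 26.8 to 467 CPM (median 343) and 38.1 to 157 CPM (median 61.8). Hsd11b1 had a log2 fold change of -1.79 ± 0.51 (adjusted p = 0.0203). Cyp1b1 was at 58.9 and 60.1 CPM in the ASC1 libraries of rows E and F and 229.6 to 703 CPM in the other 6. Hsd11b1 was at 26.8 and 44.1 CPM in the ASC1 libraries of rows E and F and 243 to 467 CPM in the other 6. Hsd11b1 was not past the threshold without row H of ASC1 (log2 fold change -1.65, adjusted p = 0.054), and neither gene was with the term for Tcf21 (adjusted p = 0.0773 for Cyp1b1 and 0.635 for Hsd11b1).

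In the renin-angiotensin system 2 of 10 tested members were higher and 1 lower. The receptor gene Agtr1a was at 0 to 12.02 CPM (median 2.88) in ASC1 and 5.56 to 77.6 CPM (median 20.8) in ASC2. Agtr1a had a log2 fold change of 2.75 ± 0.44 (adjusted p = 6.41e-06). The peptidase Anpep was at 32.1 to 80.8 CPM (median 65.9) and 85.3 to 238 CPM (median 143) with no overlap. Anpep had a log2 fold change of 1.21 ± 0.24 (adjusted p = 0.000417). Agt, which encodes the precursor angiotensinogen, was at 3.21 to 57.9 CPM (median 37.7) in ASC1 and 0 to 22.2 CPM (median 12.8) in ASC2. Agt had a log2 fold change of -1.48 ± 0.45 (adjusted p = 0.0301, and 0.478 with the term). The call of Agt was lost in 7 of the 16 fits that left out 1 library, up to adjusted p = 0.0978 without row G of ASC1. Retinoid genes had 2 of 15 higher and 5 lower (median -0.65). The retinaldehyde dehydrogenases Aldh1a1 and Aldh1a3 were higher by 1.13 ± 0.28 and 1.38 ± 0.35 (adjusted p = 0.0060 and 0.00784, and 0.0508 with the term for Aldh1a3). The third enzyme of this kind, Aldh1a2, was at 0 to 182 CPM (median 129) in ASC1 and 0 to 57.04 CPM (median 3.13) in ASC2. Aldh1a2 had a log2 fold change of -2.68 ± 0.76 (adjusted p = 0.0197, and 0.0823 with the term). Rbp4, the plasma carrier of retinol, was lower, with a log2 fold change of -2.99 ± 0.59 (adjusted p = 0.000401, and 0.0764 with the term). Rdh10, which makes retinaldehyde, was at 5.35 to 19.4 CPM (median 9.44) in ASC1 and 0 to 4.07 CPM (median 2.74) in ASC2. Rdh10 had a log2 fold change of -2.04 ± 0.54 (adjusted p = 0.0101, and 0.059 with the term). Dhrs3, which reduces retinaldehyde, had a log2 fold change of -1.38 ± 0.40 (adjusted p = 0.0249, and 0.307 with the term), a call lost in 5 of the 16 fits that left out 1 library, up to adjusted p = 0.0731 without row D of ASC1.

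Among semaphorins, neurotrophins and their receptors 3 of 26 tested members were higher and 2 lower. Besides Sema3c, Sema3b was at 0 to 21.8 CPM (median 9.11) in ASC1 and 16.7 to 128 CPM (median 53.8) in ASC2. Sema3b had a log2 fold change of 2.48 ± 0.41 (adjusted p = 1.31e-05). Ntrk2, the receptor of brain-derived neurotrophic factor, was at 6.01 to 33.9 CPM (median 11.9) and 20.4 to 80.8 CPM (median 43.8). Ntrk2 had a log2 fold change of 1.73 ± 0.33 (adjusted p = 0.000208). The lower members were Sema5a (log2 fold change -1.51 ± 0.40, adjusted p = 0.0103) and the guidance ligand Slit3 (log2 fold change -1.11 ± 0.27, adjusted p = 0.00443), and Slit3 had an adjusted p of 0.369 with the term for Tcf21. Of 21 vascular growth factors and receptors 1 was higher and 1 lower, near the shares of all genes tested (3.54% and 2.58%). Pdgfd was higher (log2 fold change 1.57 ± 0.33, adjusted p = 0.00077) and Vegfc lower. Vegfc had a log2 fold change of -1.69 ± 0.53 (adjusted p = 0.0392, and 0.209 with the term). The call of Vegfc was lost in 10 of the 16 fits that left out 1 library, up to adjusted p = 0.089 without row H of ASC1. Of 30 proliferation genes 0 were called by edgeR and 0 by DESeq2, and 0 had an unadjusted p below 0.05 in edgeR. Their summed level was 1289 to 4032 CPM (median 1562) in ASC1 and 903 to 3629 CPM (median 2648) in ASC2.

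Markers of the DPP4- states were counted in the same way. Of 18 ASC1a markers 4 were lower and 1 higher in ASC2, with a median log2 fold change of -0.57 that became -0.09 with the term for Tcf21. Col15a1, a basement membrane collagen, was at 164 to 439 CPM (median 283) in ASC1 and 17.4 to 167 CPM (median 98.5) in ASC2, with 7 of 8 ASC2 libraries below every ASC1 library (log2 fold change -1.54 ± 0.37, adjusted p = 0.0042, and -1.20 with the term, adjusted p = 0.0124). Apoe, an apolipoprotein made by macrophages and adipose stroma, was at 72.1 to 354 CPM (median 127) and 9.17 to 117 CPM (median 19.7). Apoe had a log2 fold change of -2.04 ± 0.56 (adjusted p = 0.0144, and 0.062 with the term). It was not past the threshold without row H of ASC1 (log2 fold change -1.76, adjusted p = 0.060). G0s2, an inhibitor of adipose triglyceride lipase, was at 9.63 to 174 CPM (median 115) in ASC1 and 4.75 to 37.4 CPM (median 19.4) in ASC2 (log2 fold change -2.28 ± 0.50, adjusted p = 0.0013, and 0.285 with the term), with 9.63 and 12.02 CPM in the ASC1 libraries of rows E and F and 78.6 to 174 CPM in the other 6. Sdc1, a heparan sulfate proteoglycan, was lower with a log2 fold change of -0.71 ± 0.23 (adjusted p = 0.0438), a call lost in 10 of the 16 fits that left out 1 library, up to adjusted p = 0.136 without row E of ASC1. Pparg, the master regulator of adipogenesis, was the member higher in ASC2, at 6.42 to 19.3 CPM (median 11.01) in ASC1 and 0.983 to 56.8 CPM (median 34.9) in ASC2. Pparg had a log2 fold change of 1.44 ± 0.45 (adjusted p = 0.0382). Its ASC2 values were 0.983 and 2.71 CPM in rows C and D and 19.01 to 56.8 CPM in the other 6. The call of Pparg was lost in 11 of the 16 fits that left out 1 library, up to adjusted p = 0.0951 without row G of ASC2. With the term for Tcf21 its log2 fold change was 0.41 (adjusted p = 0.83). Lpl, Fabp4 and Cd36 did not pass, with log2 fold changes of -0.81 ± 0.47, 0.10 ± 0.33 and -0.65 ± 0.44 (adjusted p = 0.363, 0.926 and 0.455).

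Of 7 ASC1b markers 3 were lower and 0 higher (median -1.27). Clec11a, a secreted lectin-like growth factor, was at 11.7 to 28.1 CPM (median 18.4) in ASC1 and 0 to 8.85 CPM (median 2.20) in ASC2 with no overlap. Clec11a had a log2 fold change of -2.55 ± 0.58 (adjusted p = 0.00225). F3, the tissue factor gene, was at 103 to 649.8 CPM (median 525) and 25.3 to 138 CPM (median 64.01), with 6 of 8 ASC2 libraries below every ASC1 library. F3 had a log2 fold change of -2.46 ± 0.42 (adjusted p = 3.33e-05). Both held with the term for Tcf21, at -2.57 (adjusted p = 0.000745) for Clec11a and -1.52 (adjusted p = 0.000754) for F3, and the remaining member was Gdf10. Without the libraries in which the Y-chromosome sum exceeded Xist, 0 of the 7 markers were called. Mgp, Fmo2, Vit and Abcg1 had log2 fold changes between -1.37 and -0.80 and did not pass. In the wider list of adipogenic regulators and lipid handling, 4 of 27 were higher and 3 lower (median -0.27). The higher members were Pparg, Ebf2, Zfp423 and Apod, of which Ebf2 alone passed with the term. Ebf2, a factor of the preadipocyte and beige lineage, was at 18.3 to 58.1 CPM (median 25.97) in ASC1 and 52.9 to 131 CPM (median 81.5) in ASC2. Ebf2 had a log2 fold change of 1.42 ± 0.23 (adjusted p = 7.46e-06). Zfp423, a zinc-finger factor of preadipocyte commitment, had a log2 fold change of 1.75 ± 0.55 (adjusted p = 0.0413, and 0.16 with the term). The call of Zfp423 was lost in 9 of the 16 fits that left out 1 library, up to adjusted p = 0.104 without row G of ASC2. The lipocalin Apod had a log2 fold change of 1.33 ± 0.33 (adjusted p = 0.00576, and 0.11 with the term), a call lost in 1 of the 16 fits that left out 1 library, up to adjusted p = 0.0734 without row E of ASC2. The lower members were G0s2, Apoe and the fatty acid carrier Fabp5, at 76.1 to 789 CPM (median 531) in ASC1 and 69.7 to 251 CPM (median 171) in ASC2 (log2 fold change -1.42 ± 0.36, adjusted p = 0.00695, and adjusted p = 0.423 with the term).

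The genes with the largest differences in the other direction were examined with the split by Tcf21 and Tbx15. Hp, the hemoglobin-binding haptoglobin of adipose and liver, was at 2.14 to 959.7 CPM (median 631) in ASC1 and 3.17 to 157 CPM (median 15.3) in ASC2 (log2 fold change -3.80 ± 0.92, adjusted p = 0.00437), with 2.14 and 4.01 CPM in the ASC1 libraries of rows E and F and 315 to 959.7 CPM in the other 6. With the term its log2 fold change was -1.55 (adjusted p = 0.186). Gdpd2, a glycerophosphodiester phosphodiesterase, was at 0 to 65.4 CPM (median 36.1) and 0 to 4.92 CPM (median 0). Gdpd2 had a log2 fold change of -4.84 ± 0.84 (adjusted p = 5.15e-05). It had no read in the ASC1 libraries of rows E and F and 27.7 to 65.4 CPM in the other 6, and it passed with the term at -3.50 (adjusted p = 0.00192). Mrap, an accessory protein of the corticotropin receptor, was at 1.07 to 40.5 CPM (median 24.6) and 0 to 10.2 CPM (median 0.679) (log2 fold change -3.07 ± 0.70, adjusted p = 0.00251, and -1.98 with the term, adjusted p = 0.20). Other genes were high in every ASC1 library, rows E and F included. Cyp2f2, a cytochrome P450, was at 20.04 to 116 CPM (median 40.1) in ASC1 and 0 to 14.7 CPM (median 4.04) in ASC2 with no overlap. Cyp2f2 had a log2 fold change of -3.29 ± 0.51 (adjusted p = 3.22e-06). With the term it was -2.84 (adjusted p = 0.000917). Ltbp2, Mmp3, Clec11a and Cemip, described above, likewise did not overlap between the populations.

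**Figure D4:**
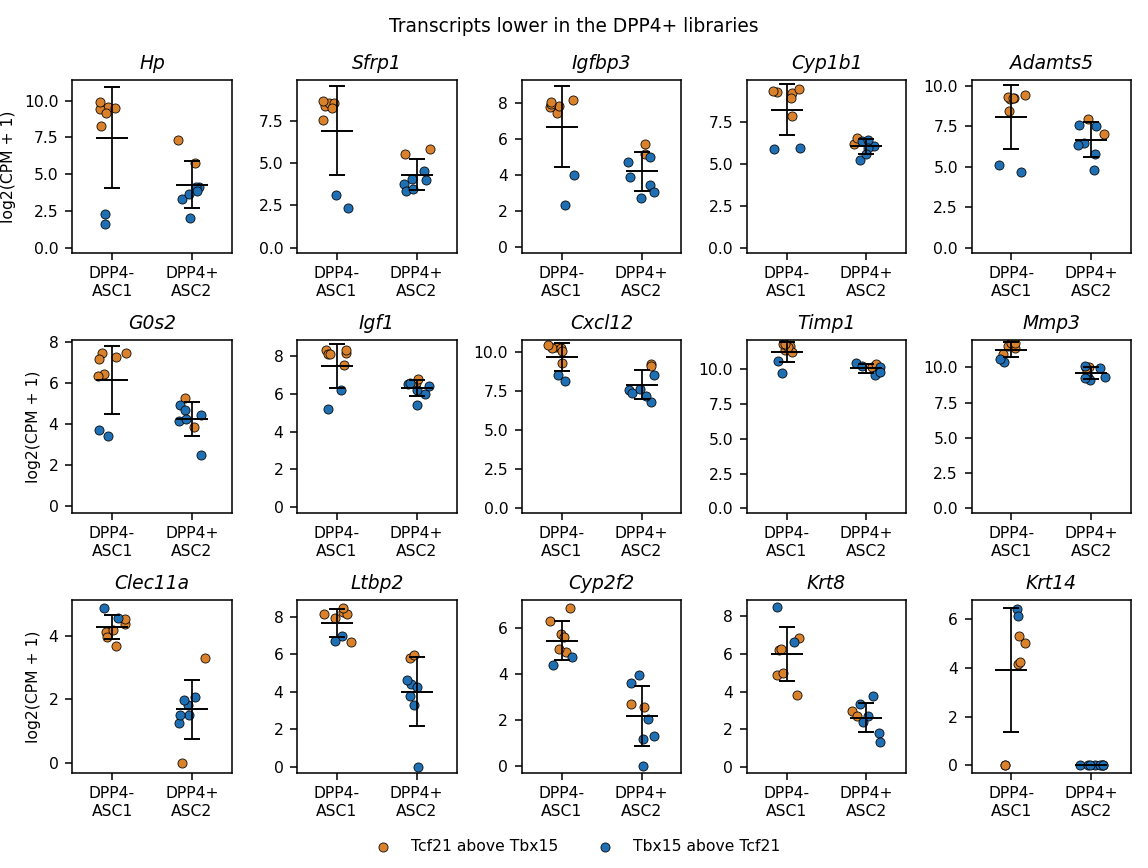
Log2(CPM + 1) of 15 transcripts that were lower in ASC2, drawn as for the transcripts higher in ASC2, with 1 point a library and bars for the mean ± SD of 8 libraries. For Hp, Sfrp1, Igfbp3, Cyp1b1, Adamts5, G0s2, Igf1, Cxcl12, Timp1, Mmp3 and Cyp2f2 the ASC1 points of rows E and F, in the color of Tbx15 above Tcf21, lie below the other 6. For Mmp3, Clec11a, Ltbp2, Cyp2f2 and Krt8 every ASC1 point lies above every ASC2 point.

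Markers of other cell types were read in the same libraries. Epithelial genes of the mammary gland and skin were lower in ASC2 in 6 of 9 tested members and higher in 0 (median -3.96), and 8 were lower with the term for Tcf21. Their sum was 85.3 to 1139 CPM (median 268) in ASC1 and 10.2 to 66.5 CPM (median 24.8) in ASC2, with no overlap, while Epcam, Krt15, Csn3 and Elf5 had too few reads to be tested. Krt14, a keratin of basal epithelium, had 180 reads in ASC1 and none in ASC2 and was at least 71.5-fold lower when ASC2 was set at 3 reads over the group (adjusted p = 0.000856). The simple-epithelium keratins Krt8, Krt18 and Krt7 were at 13.1 to 358 CPM (median 73.7), 26.2 to 262 CPM (median 50.7) and 18.7 to 132 CPM (median 48.2) in ASC1. In ASC2 they were at 1.47 to 12.7 CPM (median 5.49), 1.85 to 25.3 CPM (median 8.98) and 0 to 6.79 CPM (median 2.19), with no overlap for any of the 3 (adjusted p = 0.000931, 0.00604 and 0.000189). Krt17 (215 reads against 2), Cldn4 and Sfn, also epithelial genes, were among the 15 largest differences on that side (adjusted p = 0.00282, 0.00793 and 0.00338). The part of epithelial RNA in the other genes higher in ASC1 was not tested.

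Skeletal muscle genes went the other way, with 4 of 5 tested members higher in ASC2 and 0 lower. Their sum was 1.48 to 39.6 CPM (median 8.42) in ASC1 and 7.33 to 198 CPM (median 92.4) in ASC2, and their median log2 fold change of 3.27 was 3.07 when Myh1 was set at its bound. Acta1, the actin of skeletal muscle, was at 0 to 28.9 CPM (median 4.00) in ASC1 and 0 to 95.03 CPM (median 52.99) in ASC2. Acta1 had a log2 fold change of 2.68 ± 0.69 (adjusted p = 0.00781). Mylpf, a myosin light chain, was at 0 to 7.49 CPM (median 2.21) and 3.67 to 57.4 CPM (median 17.9). Mylpf had a log2 fold change of 3.27 ± 0.72 (adjusted p = 0.00155). Myh1 had 0 reads in ASC1 and 30 in ASC2, and Myl1 had 2 and 60 (adjusted p = 0.00667 and 0.0155), while Myh4, Ckm and Tnni2 had too few reads to be tested. The part of muscle RNA in the other genes higher in ASC2 was not tested. Endothelial genes, whose cells the gate for CD31- leaves out for the most part, had 0 of 10 members higher and 1 lower, Cdh5, at 16.1 to 46.7 CPM (median 27.3) in ASC1 and 1.85 to 15.4 CPM (median 8.62) in ASC2. Cdh5 had a log2 fold change of -1.73 ± 0.37 (adjusted p = 0.00096). Their sum was 90.99 to 207 CPM (median 162) in ASC1 and 71.9 to 150.2 CPM (median 89.3) in ASC2. Leukocyte genes had 0 of 14 higher and 2 lower, C1qb (log2 fold change -1.77 ± 0.48, adjusted p = 0.0134) and Fcer1g. Fcer1g had a log2 fold change of -1.36 ± 0.41 (adjusted p = 0.0301). The call of Fcer1g was lost in 6 of the 16 fits that left out 1 library, up to adjusted p = 0.0902 without row C of ASC1. Their sum was 746 to 3965 CPM (median 3119) in ASC1 and 965 to 1961 CPM (median 1209.9) in ASC2, although the gate was CD45-, and neither gene passed with the term for Tcf21 (adjusted p = 0.453 and 0.587). The part of leukocyte RNA in the complement, chemokine and Apoe results was not tested.

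Mural cell genes had 0 of 10 higher and 1 lower, Mcam, and 6 had an unadjusted p below 0.05 in edgeR (median log2 fold change -0.77). Summed over the list, their level was 1197 to 2670 CPM (median 1718) in ASC1 and 238 to 2554 CPM (median 614) in ASC2. Mcam had a log2 fold change of -1.62 ± 0.44 (adjusted p = 0.0134, and 0.0654 with the term). Mesothelial genes had Krt19 higher (log2 fold change 2.20 ± 0.46, adjusted p = 0.000885) and Nkain4 and Upk1b lower (adjusted p = 0.0327 and 0.0456, and 0.338 and 0.113 with the term) among 6 tested. The call of Nkain4 was lost in 8 of the 16 fits that left out 1 library, up to adjusted p = 0.083 without row H of ASC1. That of Upk1b was lost in 12 of the 16 fits that left out 1 library, up to adjusted p = 0.0936 without row E of ASC2. Mature adipocyte genes had Car3 lower (log2 fold change -2.18 ± 0.61, adjusted p = 0.017) among 4 tested, with a call that did not hold without row G of ASC1 (log2 fold change -1.77, adjusted p = 0.0992). Fibroblast markers, shared by both populations, had 3 of 10 higher and 0 lower. Cd34, whose protein was part of the gate for both, was at 78.7 to 249 CPM (median 172) in ASC1 and 502 to 1902 CPM (median 735) in ASC2 with no overlap. Cd34 had a log2 fold change of 2.41 ± 0.33 (adjusted p = 2.11e-07). Ly6a, which encodes the stem cell antigen SCA1, was at 345 to 1226 CPM (median 769.8) and 911 to 3470.1 CPM (median 1579) (log2 fold change 1.30 ± 0.25, adjusted p = 0.000306), and the remaining member was Dcn. Pdgfra, Pdgfrb, Lum and Thy1 had log2 fold changes of -0.34 ± 0.19, -0.43 ± 0.19, 0.37 ± 0.23 and 0.23 ± 0.35 and did not pass (adjusted p = 0.339, 0.196, 0.409 and 0.80). Of 5 tested subcutaneous depot genes 1 was higher and 1 lower, the homeobox genes Hoxc10 (log2 fold change 1.38 ± 0.43, adjusted p = 0.0406, and 0.122 with the term) and Hoxc8. Hoxc8 had a log2 fold change of -1.17 ± 0.36 (adjusted p = 0.0339, and 0.273 with the term). The call of Hoxc10 was lost in 9 of the 16 fits that left out 1 library, up to adjusted p = 0.106 without row H of ASC1. That of Hoxc8 was lost in 6 of the 16 fits that left out 1 library, up to adjusted p = 0.0923 without row D of ASC1, and neither passed with the term for Tcf21. Of 5 visceral depot genes 0 were called by edgeR and 0 by DESeq2, 1 had an unadjusted p below 0.05 in edgeR, and their median log2 fold change was -1.27.

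**Figure D5:**
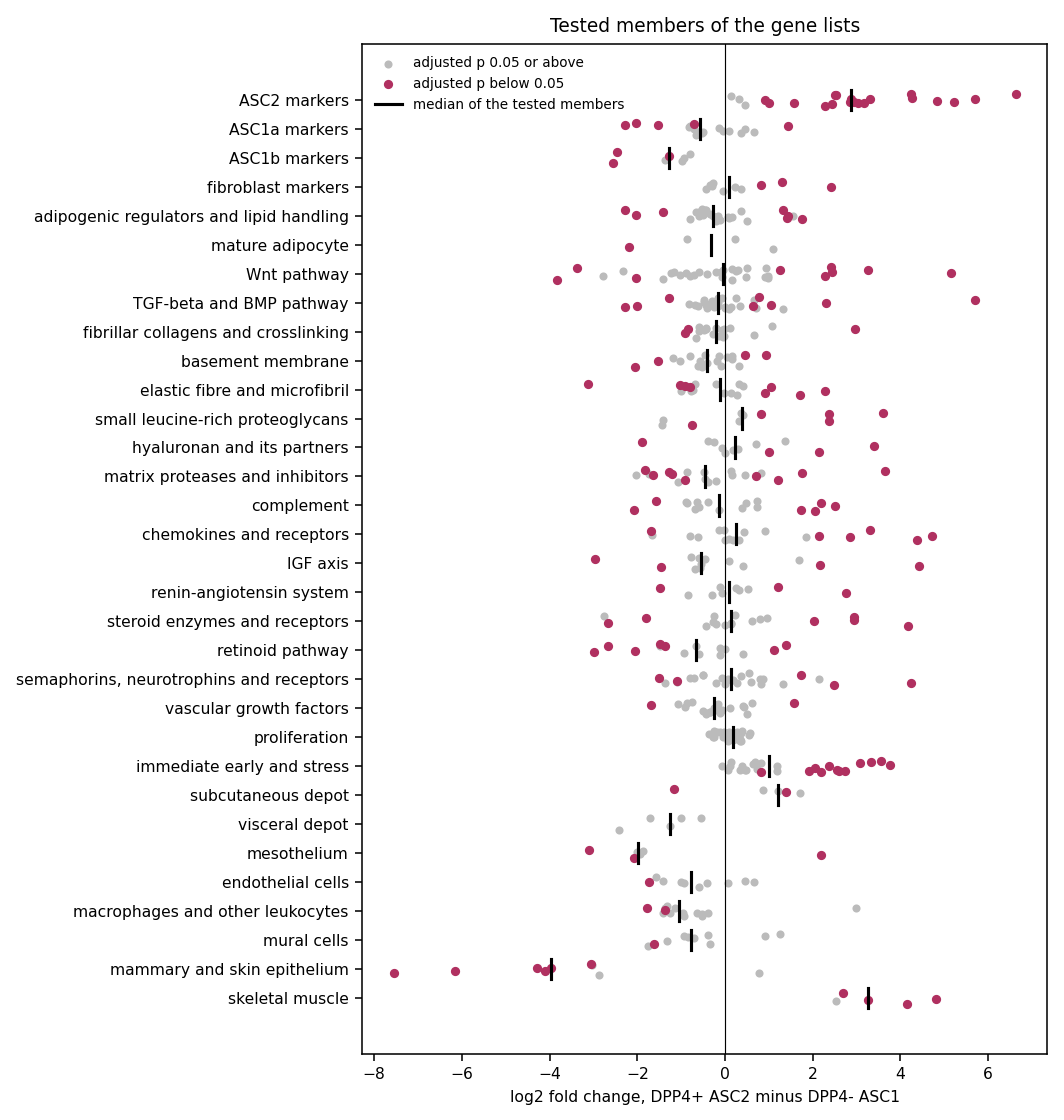
Log2 fold change (ASC2 minus ASC1) of each tested member of the gene lists, with 1 point a gene, colored where the adjusted p was below 0.05, and a black bar at the median of the tested members. The ASC2 markers, the immediate early genes and the skeletal muscle genes have medians of 2.87, 1.00 and 3.27, the epithelial genes have a median of -3.96, and called members of the matrix, Wnt and TGF-beta lists lie on both sides of 0.

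The same contrast in control males, which shares no library with control females, had 1519 genes called (12.2%), 6.88% of genes tested higher and 5.3% lower. In libraries labelled control male Tcf21 exceeded Tbx15 in 3 of 7 ASC1 and 0 of 8 ASC2 libraries. The Y-chromosome sum exceeded Xist in 3 of 7 and 4 of 8 of them, close to the 5 of 8 and 4 of 8 of the libraries labelled control female, so the comparison is one of labels. Of the 441 genes higher in control female ASC2, 233 (52.8%) were called higher in males, and of the 321 lower genes 144 (44.9%) were called lower, and together these were 24.8% of the male calls. A test of the difference between the contrasts called 16 genes (0.128% of genes tested) in edgeR, 25 with RLE size factors and 135 with DESeq2. Among the genes whose contrast was more positive in control females were Serpina3c, Eln, Chrdl1 and Irf4. Eln had means of 50.2 ± 10.6 CPM in ASC1 (SD, n = 7) and 58.02 ± 24.5 CPM in ASC2 (SD, n = 8) of control males, against 55.5 ± 24.4 CPM and 275 ± 143 CPM in control females (SD, n = 8 and 8). The contrasts of Eln differed by 2.08 ± 0.46, adjusted p = 0.0384 (edgeR). Serpina3c was at 25.4 ± 10.3 CPM and 79.6 ± 13.2 CPM in control males, and its contrasts differed by 3.21 ± 0.61, adjusted p = 0.00645 (edgeR). For Chrdl1 and Irf4 the differences were 2.66 ± 0.60, adjusted p = 0.0409, and 5.77 ± 1.32, adjusted p = 0.0461, the latter a fitted value that depends on the prior count, since Irf4 had no read in control female ASC1. In the opposite direction Ptn, the growth factor pleiotrophin, had means of 0.621 ± 1.30 CPM and 24.8 ± 9.07 CPM in control males against 11.2 ± 12.05 CPM and 13.9 ± 9.83 CPM in control females. The contrasts of Ptn differed by -4.77 ± 0.83, adjusted p = 0.00216 (edgeR). Cavin2, a protein of caveolae, was lower in control female ASC2 (log2 fold change -1.64 ± 0.33, adjusted p = 0.00046) and had a log2 fold change of 0.80 in control males, a difference of -2.44 ± 0.47, adjusted p = 0.00645.

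In castrated males 9.09% of genes tested were called in the contrast of ASC2 minus ASC1, and 295 genes (2.37%) differed from control females in it. Akr1c14 was higher in ASC2 of control females by 4.18 ± 0.47 and had a log2 fold change of -1.20 in castrated males (difference 5.38 ± 0.63, adjusted p = 7.79e-08). Its means were 42.1 ± 22.4 CPM and 18.8 ± 5.98 CPM in castrated ASC1 and ASC2 (SD, n = 8 and 8). Pgr and Cldn11 had castrated log2 fold changes of -2.59 and -1.90 (adjusted p for the difference 0.000585 and 0.00223). Agt was lower in control female ASC2 and had a log2 fold change of 3.01 in castrated males (difference -4.49 ± 0.73, adjusted p = 8.93e-05). Trf, which encodes transferrin, had -2.82 in control females (adjusted p = 0.00138, and 0.554 with the term) and 2.48 in castrated males (difference -5.30 ± 0.89, adjusted p = 0.000122). In control females the value of Trf was 1.65 without the libraries with Tcf21 above Tbx15 and 0.063 without those with the Y-chromosome sum above Xist. That of Agt was 1.22 and -0.31, and none of these values passed. In castrated males the Y-chromosome sum exceeded Xist in 0 of 8 ASC1 and 8 of 8 ASC2 libraries, so in these mice the Y-chromosome pattern and the population cannot be told apart. Tcf21 exceeded Tbx15 in 6 of 8 castrated ASC1 and 2 of 8 castrated ASC2 libraries. Ovariectomized females had 3 ASC1 libraries after the authors' removal of libraries with fewer than 8500 genes. Tcf21 exceeded Tbx15 in 0 of 3 ASC1 and 4 of 8 ASC2 libraries of these mice, and the Y-chromosome sum exceeded Xist in none. Their own contrast of ASC2 minus ASC1 called 4418 genes (35.4%), and 4334 genes (34.8%) differed in contrast from control females. The part of the 3 ASC1 libraries in these counts was not tested. Pi16 was higher in ASC2 in all 4 kinds of mouse, with log2 fold changes of 6.64 in control females, 6.76 in control males, 6.46 in castrated males and 2.64 in ovariectomized females.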

How the data were processed

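RNA of sorted DPP4+ and DPP4- cells was measured by Smart-seq3 in 58 libraries, 16 of them from control mice labelled female. The authors added reads with and without molecular identifiers, trimmed adapters with NGmerge, checked quality with FastQC 0.11.9 and alignments with STAR 2.7.10a and MultiQC 1.12, removed libraries with fewer than 8500 genes, and deposited estimated counts per gene from Salmon 1.9.0 (GRCm39). Of the values above 0, 15% were not whole, and all were rounded.

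A gene entered the tests where over 3 libraries held 5 reads or more of it (12464 of 56953). The quasi-likelihood fit of edgeR 4.0.16 was run in R 4.3.3 (TMM, 8 groups, 58 libraries) and the contrast of ASC2 minus ASC1 tested, with Benjamini-Hochberg adjustment and a threshold of 0.05. CPM are counts scaled to a common library total, adjusted by the TMM factor of each library, and they do not compare levels between genes of different length. Alternatives used DESeq2 1.42.0, limma 3.58.1, other scalings, filters and subsets of libraries. The biological coefficient of variation was 35.6%. Intervals of ratios and floors of 3 reads cover counting error alone. The gene lists, their members and the comparison were chosen with earlier results of these data known. Genes were named from the marker lists, as the 15 largest called differences in each direction with a mean of at least 10 CPM, as up to 6 called members of each other list with any member needed to show its split, and as up to 8 genes in each direction of a test between kinds of mouse. Called genes beyond 6 in a list were named after their values were seen. A called gene of the retinoid list is counted and otherwise not reported here. The fits were tested on simulated counts. No 2 libraries of a group agreed within sampling noise (lowest chi-square per gene 1.92 in ASC1 and 2.79 in ASC2).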

Additional observations from a re-analysis of the deposited data

Results flagged for a closer look

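Of 338 sets of 8 libraries screened, 31 held a library that lay apart from the others of its group by Dixon's criterion on log2(CPM + 1), where chance alone flags about 1 in 20 groups. The ASC1 library of row A had the lowest total count (139822) and the fewest genes (10502). Row A of ASC1 held the lowest ASC1 value of Apod (13.1 CPM), Chrdl1 (0 CPM), Efemp1 (216 CPM) and Zfp36 (6.56 CPM). Row B of ASC1 held the highest ASC1 value of Omd (9.68 CPM). Row C of ASC1 held the highest ASC1 value of Dact2 (5.00 CPM). Row E of ASC1 held the highest ASC1 value of Gpr1 (1.07 CPM) and the lowest ASC1 value of Anpep (32.1 CPM). Row F of ASC1 held the lowest ASC1 value of Hoxc8 (4.01 CPM) and Sema3b (0 CPM). Row G of ASC1 held the highest ASC1 value of Mrgprg (3.62 CPM) and Wnt10b (1.21 CPM). Row H of ASC1 held the highest ASC1 value of Bmp7 (1.56 CPM) and Krt36 (1.56 CPM). Row E of ASC2 held the highest ASC2 value of Id2 (246 CPM), Id3 (903 CPM) and Klf6 (215 CPM) and the lowest ASC2 value of Agt (0 CPM), Bgn (1075 CPM), Col15a1 (17.4 CPM), Ltbp2 (0 CPM), Mgp (17.4 CPM), Nid2 (14.2 CPM), Pdgfrb (188 CPM), Slit3 (58.6 CPM) and Thy1 (603 CPM). Row G of ASC2 held the lowest ASC2 value of Acta1 (0 CPM), Cfp (11.00 CPM) and Rdh10 (0 CPM). For Bmp7, Gpr1, Krt36, Mrgprg and Wnt10b the ASC1 library concerned was the 1 library of its group with a read.

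A difference of contrasts is the control female log2 fold change minus that of the other kind of mouse, tested as an interaction in edgeR at an adjusted p below 0.05. Against control males it was positive for Irf4 (5.77), Serpina3c (3.21), Chrdl1 (2.66) and Eln (2.08), and negative for Ptn (-4.77) and Cavin2 (-2.44). Against castrated males it was positive for Cldn11 (6.58), Pgr (5.53), Akr1c14 (5.38), Agtr1a (3.24), Serpina3c (2.57), Ltbp4 (2.22), C4b (2.15), Ogn (1.66), Aldh1a1 (1.36) and Mmp2 (1.22). Against castrated males it was negative for Trf (-5.30), Agt (-4.49), Mrap (-4.03), Ltbp2 (-4.02), Sfrp1 (-3.61), Cfp (-3.45), Cyp1b1 (-3.22), Cd36 (-3.21), C1qb (-2.85), Fcer1g (-2.75), Ptn (-2.45), Aldh1a3 (-2.12), F3 (-2.10), Cavin2 (-1.89), Cdh5 (-1.85) and Fabp5 (-1.80). Against ovariectomized females, with 3 ASC1 libraries, the contrast differed for 114 of the 167 genes named.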

How the results depend on the processing

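Against 762 (441 higher and 321 lower, 553 at 2-fold or more) in the reported fit, the number of genes called was 291 (252 higher and 39 lower, 287 at 2-fold or more) without the libraries in which the Y-chromosome sum exceeded Xist, 212 (152 higher and 60 lower, 206 at 2-fold or more) without the libraries with Tcf21 above Tbx15, 452 (323 higher and 129 lower, 367 at 2-fold or more) with the term for Tcf21, 187 (164 higher and 23 lower, 184 at 2-fold or more) with only the libraries with Tcf21 above Tbx15, 1289 (694 higher and 595 lower, 851 at 2-fold or more) without rows E and F of ASC1 and 537 (362 higher and 175 lower, 405 at 2-fold or more) with the ratio of Xist to the Y-chromosome sum as a covariate. The alternatives with the term, with only those libraries and without rows E and F were chosen after the data had been seen, and the cause of the changes was not tested. Over other scalings, filters, tools and the fit of the 16 libraries alone it was 677 to 865. With 1 library left out at a time it was 530 to 902 (lowest without row E of ASC2, highest without row E of ASC1), with 314 to 489 higher, 216 to 422 lower and 417 to 638 at 2-fold or more. The 16 genes that differed from control males became 25 with RLE size factors, 24 with filterByExpr and 135 with DESeq2. With the plate row as a replicate block 768 (434 higher and 334 lower, 541 at 2-fold or more) genes were called. Of the named genes 78 of 88 higher and 56 of 62 lower genes passed with the block, against 81 and 56 in the 16 libraries without it. Rows were not taken as pairs, since the deviations of libraries of the same row correlated above 0.1 in only 3 of 8 rows (C, D and F, at 0.237, 0.227 and 0.499), each the closest ASC2 library of its ASC1 library, and at -0.05 to 0.05 in the other 5 (6374 genes).

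The log2 fold changes of some named genes changed sign, and the cause was not tested. Without the libraries in which the Y-chromosome sum exceeded Xist, the sign turned for Cxcl12 (0.013), Trf (0.063), Igf1 (0.17), C1qb (0.15), Aldh1a2 (0.91), Hsd11b1 (0.27), Dhrs3 (0.20), Adamts5 (0.54), Fcer1g (0.019), Nkain4 (0.21), Adamts15 (0.54), Hoxc10 (-0.24), Plod1 (0.21), Upk1b (0.92) and Adamts2 (0.60). Without the libraries with Tcf21 above Tbx15, the sign turned for Igfbp3 (0.54), Cyp1b1 (0.073), Sfrp1 (1.18), Nid2 (0.45), G0s2 (0.85), Trf (1.65), Mrap (0.56), Hp (2.01), Slit3 (0.066), Fabp5 (0.34), Igf1 (0.50), C1qb (0.83), Hsd11b1 (0.78), Adamts5 (1.83), Fcer1g (1.12), Agt (1.22), Adamts15 (0.98), Plod1 (0.064) and Adamts2 (0.65). With only the libraries with Tcf21 above Tbx15, the sign turned for Pparg (-2.74). No named gene changed sign under the other alternatives run. With DESeq2 86 of 88 named higher genes and 59 of 62 named lower genes passed, and with limma voom 80 and 42 did. Depth limits genes near 1 read a library, and 123 called genes had a mean under 10 CPM.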
